A study of Homo sapiens with 18 samples.

Results

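The HSP70 family genes of human cells were followed through 2 metal treatments in 2 genotypes of one cell line. The members were given by name: HSPA1A, HSPA1B, HSPA1L, HSPA2, HSPA4, HSPA4L, HSPA6, HSPA7, HSPA8 and HSPA9, with HSPA5 left out, and they make up 10 of the 58336 gene IDs counted and 10 of the 19393 genes tested. HSPA7 passed the filter on low counts only through the metal-treated groups, and HSPA2 only through the knockout, so for those genes a difference between those groups was built into the selection. The cells were HEK293A, a subline of the HEK293 line from embryonic kidney that grows attached, either wild type or lacking both LATS1 and LATS2, the Hippo pathway kinases that restrain the coactivators YAP and TAZ. The 6 groups held 3 libraries each, made from polyadenylated RNA after 4 h of treatment. The knockout received 250 uM ZnCl2, 50 uM CdCl2 or H2O (water), and the wild type received the same. Whether the knockout is 1 clone is not given in the sources used here, other knockout lines were not analysed here, and genotype and line cannot be told apart. The zinc and cadmium doses differ, so a difference between the metals is a difference between these doses.

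HSP70 proteins are ATP-driven chaperones that bind exposed hydrophobic stretches of unfolded proteins and release them for refolding. J-domain proteins bring them their clients and trigger ATP hydrolysis, and nucleotide exchange factors let the client go. HSPA8 is the constitutive cytosolic member, HSPA1A and HSPA1B encode the major stress-inducible protein, HSPA6 is a strictly inducible cytosolic member that rodents lack, and HSPA9 works in mitochondria. Heat shock factor HSF1 drives the inducible genes through heat shock elements, and metals that bind thiols are classic inducers. The metal response element is bound by the zinc sensor MTF1, which drives metallothionein genes.

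The upstream sequences of HSPA1A, HSPA1B, HSPA6 and HSPA8 are shown because the near-identical pair and the strictly inducible and constitutive cytosolic members can be set side by side in them. Each holds the 250 bases before the RefSeq start on GRCh38.p14, printed in the direction of transcription, with heat shock elements of 2 units (GAANNTTC or TTCNNGAA, searched on both strands, overlaps allowed) in capitals.
HSPA1A (chr6:31815293-31815542, plus strand): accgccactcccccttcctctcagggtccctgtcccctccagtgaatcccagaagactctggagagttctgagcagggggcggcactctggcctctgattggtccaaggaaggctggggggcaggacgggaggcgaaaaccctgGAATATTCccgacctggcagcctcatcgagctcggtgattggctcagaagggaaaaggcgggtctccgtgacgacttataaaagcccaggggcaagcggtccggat
HSPA1B (chr6:31827488-31827737, plus strand): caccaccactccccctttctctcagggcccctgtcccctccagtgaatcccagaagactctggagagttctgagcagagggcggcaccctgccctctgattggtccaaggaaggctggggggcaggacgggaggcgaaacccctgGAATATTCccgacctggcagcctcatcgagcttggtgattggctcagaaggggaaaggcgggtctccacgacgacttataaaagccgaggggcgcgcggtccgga
HSPA6 (chr1:161524290-161524539, plus strand): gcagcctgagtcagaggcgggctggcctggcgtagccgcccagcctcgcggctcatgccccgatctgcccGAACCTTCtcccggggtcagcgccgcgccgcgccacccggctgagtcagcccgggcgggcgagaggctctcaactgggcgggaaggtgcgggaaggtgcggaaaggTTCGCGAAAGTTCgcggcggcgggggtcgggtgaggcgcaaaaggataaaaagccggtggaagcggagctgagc
HSPA8 (chr11:123062137-123062386, minus strand): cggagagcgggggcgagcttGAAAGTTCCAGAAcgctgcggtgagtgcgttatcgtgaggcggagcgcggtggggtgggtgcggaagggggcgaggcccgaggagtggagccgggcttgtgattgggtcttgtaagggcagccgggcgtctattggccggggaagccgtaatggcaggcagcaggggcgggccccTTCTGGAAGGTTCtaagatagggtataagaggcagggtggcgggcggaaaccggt
The HSPA1A and HSPA1B stretches were 93.6% identical over 251 aligned columns, and each held 1 match, 106 to 99 bases before the start in HSPA1A and 105 to 98 in HSPA1B. HSPA6 held 3 matches, of which 2 overlap to give 3 units in a row (a 2-unit match followed, after NN, by a further GAA or TTC in turn) 74 to 62 bases before the start. HSPA8 held 4, in 3-unit runs at 230 to 218 and at 55 to 43 bases before the start.

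RefSeq had an upstream sequence for 9 of the 10 members, all except HSPA7. A 2-unit match stood upstream of 6 of those 9 (HSPA1A, HSPA1B, HSPA1L, HSPA4L, HSPA6 and HSPA8), and upstream of 11.6% of all 35116 RefSeq starts. The members are counted per gene and the background per start, and HSPA4L had this match before only 1 of its 3 starts. The 3-unit form stood upstream of HSPA6 and HSPA8 and of 0.441% of all starts. The metal response element core (TGCACNC or TGCGCNC, both strands) stood upstream of HSPA4L only, before 2 of its 3 starts, and of 24.8% of all starts. HSPA1L and HSPA1A lie head to head, and the windows before their RefSeq starts share 241 bases and the same 2-unit match. A match is a string of letters and shows no binding.

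**Figure D1:**
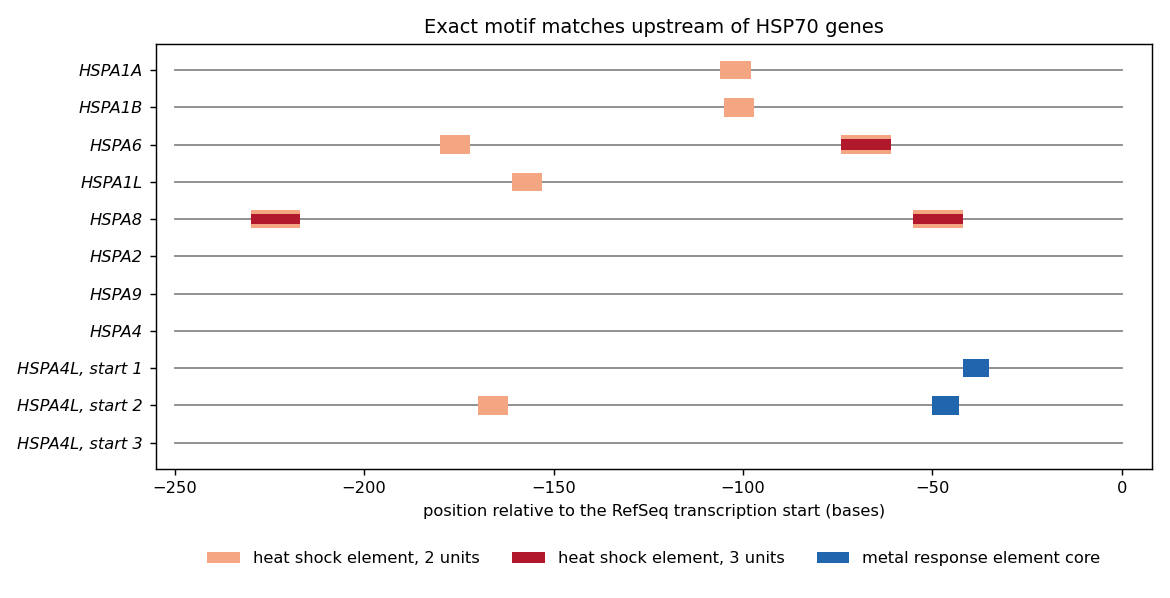
Exact motif matches in the 250 bases before each RefSeq start, with position in bases along the horizontal axis and 1 line per start (HSPA4L has 3). Heat shock elements of 2 units lie upstream of 6 genes, 3-unit runs upstream of HSPA6 and HSPA8 alone among the 9 genes shown, and the metal response element core upstream of HSPA4L alone.

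The libraries held 25478614 to 37148046 counts each, and the biological coefficient of variation had a median of 3.94% over the tested genes. LATS1 lay at 44.0 to 54.5 CPM (counts scaled to a common library size) in the 9 libraries labelled knockout, against 77.2 to 97.2 CPM in the 9 wild-type libraries. LATS2 lay at 18.2 to 18.9 CPM in knockout cells in water, against 16.2 to 16.5 CPM in wild-type cells in water. In zinc it was lower in knockout, at 36.0 to 40.3 against 44.3 to 50.1 CPM. In cadmium it was also lower, at 23.8 to 25.7 against 39.0 to 44.7 CPM. The direction for LATS2 thus differed between water and metal, so its level does not check the labels. Of 7 markers of the HEK293 line, 5 were above 1 CPM in every group and NEFM and PAX2 were not. The sum of those 7 was 2722 to 3045 CPM in knockout and 809 to 1036 CPM in wild type. The sum of 5 fibroblast markers was 32.1 to 47.2 CPM in knockout and 6.76 to 9.92 CPM in wild type, with COL1A2 and DCN under 1 CPM throughout. Keratinocyte and epithelial markers summed to at most 1.03 CPM and blood cell markers to at most 3.93 CPM. The part of these genotype differences in the HSP70 results was not tested, and in such bulk RNA fewer cells of a type and less RNA per cell cannot be told apart. Among wild-type cells in zinc, replicate 3 lay apart: the chi-square per degree of freedom was 4.51 and 4.59 between it and replicates 1 and 2, and 1.81 between those. Without it, the log2 fold changes of the members in the 5 comparisons that use its group moved by at most 0.24. No call was lost and 2 were gained. To a lesser degree replicate 1 of cadmium-treated knockout lay apart, at 2.30 and 3.29 from replicates 2 and 3, against 1.58 between those.

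All p-values are from edgeR's quasi-likelihood test across the 19393 genes with Benjamini-Hochberg adjustment, called at 0.05, and changes are log2 fold changes ± an approximate standard error. The comparisons within a genotype share its water libraries.

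Metal treatment asked which chaperone mRNAs respond within 4 h. In knockout cells, zinc raised 9 of the 10 members, where 28.2% of all tested genes rose, and cadmium raised 10 of 10, where 23.2% rose. In wild-type cells zinc raised 9 of 10 (29.4% of all tested genes rose) and cadmium raised 9 of 10 (30% rose). No member fell in these comparisons, where 27.7% (zinc) and 23.8% (cadmium) of all tested genes fell in knockout and 32% and 31.7% in wild type. A rise of at least 2-fold was called for 7 members after zinc and 6 after cadmium in knockout (7.19% and 4.9% of all genes), and for 6 after zinc and 5 after cadmium in wild type (9.17% and 9.62% of all genes). HSPA7 is in all of these counts of rises, with or without the 2-fold limit, a direction built into its selection through the metal-treated groups. The median log2 change over the members was 2.03 for zinc and 1.94 for cadmium in knockout and 1.43 and 1.72 in wild type, beside medians over all tested genes of 0.0011 and -0.0025 in knockout and -0.011 and -0.014 in wild type.

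**Figure D2:**
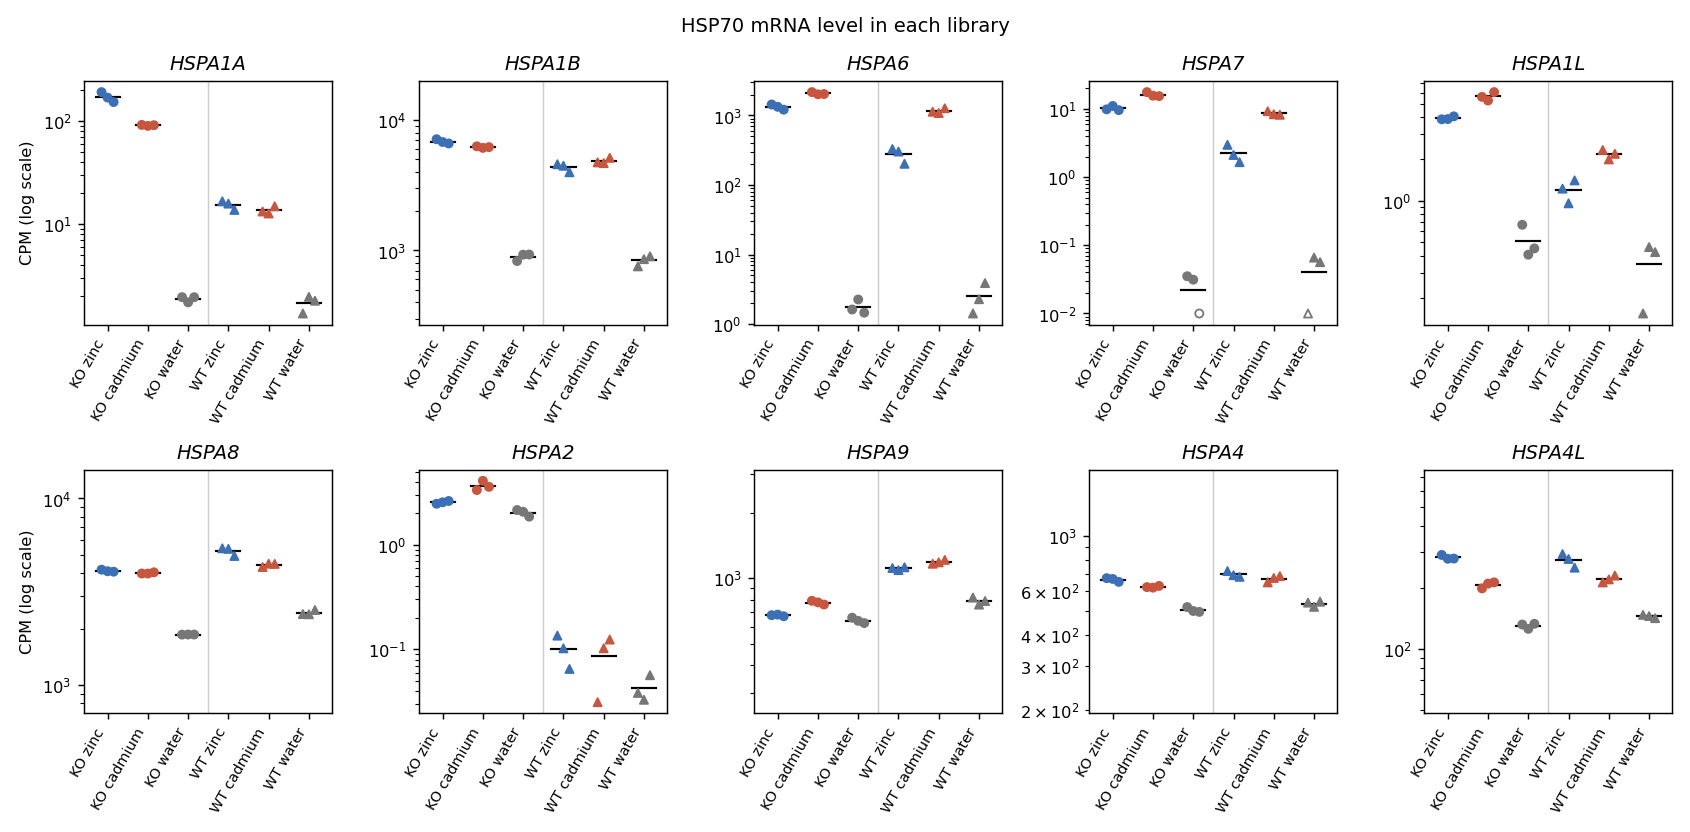
CPM of each HSP70 gene in every library on a log axis whose range differs between panels, with circles for knockout, triangles for wild type and a bar at each group's mean. Hollow points mark the 2 water libraries without an HSPA7 count, drawn at the foot of the axis, and the metal-treated groups of HSPA1A, HSPA1B, HSPA6, HSPA7 and HSPA1L lie above both water groups.

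HSPA1B (ENSG00000204388, chromosome 6, 31827735 to 31830255 on GRCh38), one of the 2 genes for the inducible cytosolic protein, had the most counts of the family after metal in knockout cells. It stood at 7146, 6804 and 6629 CPM in zinc-treated knockout cells, 6305, 6134 and 6215 CPM in cadmium-treated knockout cells and 829, 928 and 931 CPM in knockout cells in water. The wild-type values were 4589, 4467 and 3984 CPM in zinc, 4744, 4683 and 5141 CPM in cadmium and 755, 857 and 902 CPM in water. Every metal-treated library of HSPA1B thus lay at over 4 times the highest water library, and the knockout lay above the wild type under each metal without overlap. The log2 change was 2.94 ± 0.05 for zinc and 2.79 ± 0.05 for cadmium in knockout, and 2.37 ± 0.05 for zinc and 2.53 ± 0.05 for cadmium in wild type (edgeR adjusted p at most 1.57e-32).

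HSPA1A (ENSG00000204389, chromosome 6, 31815464 to 31817946), the near-identical neighbour that ends 9788 bases before HSPA1B begins, was counted far less often. It stood at 191, 169 and 153 CPM in zinc-treated knockout cells, 91.7, 89.7 and 91.1 CPM in cadmium-treated knockout cells and 1.94, 1.72 and 1.93 CPM in knockout cells in water. In wild type it stood at 16.6, 15.7 and 13.7 CPM in zinc, 13.2, 12.6 and 14.8 CPM in cadmium and 1.34, 1.95 and 1.78 CPM in water. The water groups overlapped, while the lowest metal-treated knockout library was over 5 times the highest metal-treated wild-type library. The change was 91.4-fold for zinc and 48.6-fold for cadmium in knockout (log2 6.51 ± 0.09 and 5.60 ± 0.09), and 8.92-fold and 7.90-fold in wild type (3.16 ± 0.13 and 2.98 ± 0.13), all called by edgeR (adjusted p at most 2.0e-21).

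How reads that fit both genes were treated is not given in the sources used here, which makes the split between HSPA1A and HSPA1B uncertain. Of the 2384 stretches of 100 bases in the HSPA1A transcript 69.9% also occur in HSPA1B, and 718 are its own. HSPA1A made up 2.26 to 2.61% of the counts of the pair in zinc-treated knockout cells, 1.43 to 1.45% in cadmium-treated knockout cells and 0.185 to 0.233% in knockout cells in water. In wild type the share was 0.342 to 0.359% in zinc, 0.268 to 0.287% in cadmium and 0.178 to 0.227% in water. Every metal-treated knockout library thus lay above every wild-type library in this share, while the water groups of the 2 genotypes overlapped. The sum of both genes does not depend on the split, but it would lack any reads left out of both. The sum changed by 2.97 ± 0.05 for zinc and 2.81 ± 0.05 for cadmium in knockout. In wild type it changed by 2.38 ± 0.05 and 2.54 ± 0.05, and all of these were close to HSPA1B alone.

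**Figure D3:**
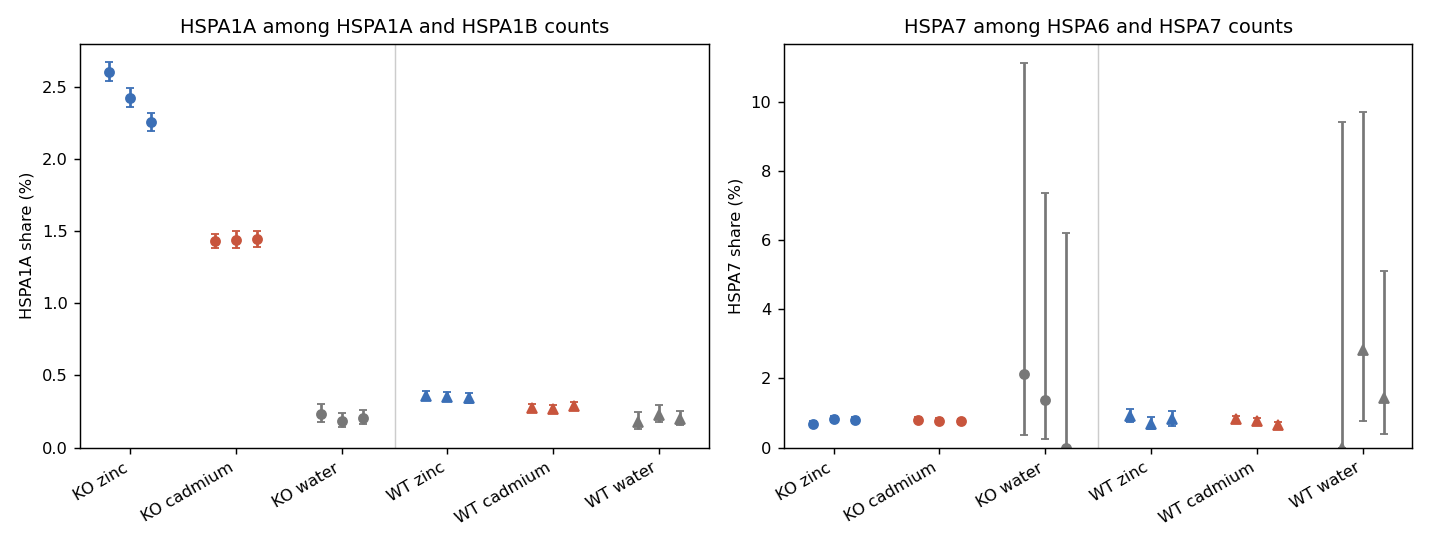
Percent of the counts of each near-identical pair given to HSPA1A (left) and to HSPA7 (right) in every library, with 95% Wilson intervals that cover counting error only. The HSPA1A share is 2.26 to 2.61% in zinc-treated knockout cells and under 0.36% in every wild-type library, while the HSPA7 share stays at 0.645 to 0.899% in the 4 metal-treated groups and rests on few counts in water.

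HSPA6 (ENSG00000173110, chromosome 1, 161524540 to 161526910), the strictly inducible member, had the largest log2 change of the family in all 4 comparisons. It stood at 1437, 1332 and 1212 CPM in zinc-treated knockout cells, 2167, 2014 and 2034 CPM in cadmium-treated knockout cells and 1.62, 2.26 and 1.46 CPM in knockout cells in water. In wild type it stood at 329, 302 and 202 CPM in zinc, 1130, 1083 and 1268 CPM in cadmium and 1.42, 2.28 and 3.88 CPM in water. The 4 metal-treated groups did not overlap each other except for zinc-treated knockout and cadmium-treated wild type, while the water groups overlapped. The change was 753-fold for zinc and 1175-fold for cadmium in knockout (log2 9.56 ± 0.16 and 10.20 ± 0.16), and 105-fold and 438-fold in wild type (6.71 ± 0.16 and 8.78 ± 0.15), all called by edgeR (adjusted p at most 4.45e-30). The zinc change in wild type was 6.90 without replicate 3, the library at 202 CPM.

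HSPA7 (ENSG00000225217, chromosome 1, 161606291 to 161608217), annotated as an unprocessed pseudogene and lying 79380 bases beyond HSPA6, was given counts that followed those of HSPA6 at a much lower level. Over 3 libraries it had 962 counts in zinc-treated and 1490 in cadmium-treated knockout cells, against 2 in knockout cells in water. In wild type it had 201 counts in zinc and 806 in cadmium, against 4 in water. Scaled to library size, the knockout ratios to water were 509 for zinc and 822 for cadmium, with 95% counting intervals of 141 to 4209 and 227 to 6794. The wild-type ratios were 51.4 (19.8 to 191) and 198 (76.9 to 727). HSPA7 took 0.645 to 0.899% of the counts of the pair in all 12 metal-treated libraries, a near-constant share, and 27.6% of the 100-base stretches of the HSPA6 transcript also occur in HSPA7. How reads that fit both genes were treated is not given in the sources used here, so this split is uncertain too. Whether HSPA7 rose apart from HSPA6 was not tested.

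HSPA1L (ENSG00000204390, chromosome 6, 31809619 to 31815065), a cytosolic member known chiefly from testis, rose at low level. It stood at 3.86, 3.87 and 4.05 CPM in zinc-treated knockout cells, 5.60, 5.27 and 6.06 CPM in cadmium-treated knockout cells and 0.669, 0.407 and 0.452 CPM in knockout cells in water. In wild type it stood at 1.22, 0.955 and 1.40 CPM in zinc, 2.32, 1.98 and 2.17 CPM in cadmium and 0.153, 0.462 and 0.425 CPM in water. No metal-treated library overlapped a water library of its genotype, and cadmium lay above zinc in each genotype. The log2 change was 2.96 ± 0.19 and 3.49 ± 0.18 for zinc and cadmium in knockout and 1.72 ± 0.27 and 2.57 ± 0.24 in wild type (edgeR adjusted p at most 8.31e-07). Between 3.03 and 11.8% of its reads came from the opposite strand, against at most 1.91% for any other member, and the counts used ignore strand. Of the 50-base stretches of the HSPA1A transcript 61 (2.51%) also occur in HSPA1L, and of its 100-base stretches 0 do. Whether reads from the far more abundant HSPA1A and HSPA1B added to the HSPA1L counts was not tested.

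HSPA8 (ENSG00000109971, chromosome 11, 123057489 to 123063230), the constitutive cytosolic chaperone that also uncoats clathrin vesicles, rose from a high level in water. It stood at 4157, 4077 and 4055 CPM in zinc-treated knockout cells, 3966, 3963 and 4024 CPM in cadmium-treated knockout cells and 1866, 1869 and 1869 CPM in knockout cells in water. In wild type it stood at 5407, 5372 and 4921 CPM in zinc, 4296, 4473 and 4462 CPM in cadmium and 2405, 2397 and 2527 CPM in water. Knockout libraries lay below wild-type libraries under each treatment without overlap, which is opposite to HSPA1B under metal. The log2 change was 1.13 ± 0.03 for zinc and 1.09 ± 0.03 for cadmium in knockout and 1.10 ± 0.03 and 0.85 ± 0.03 in wild type.

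HSPA2 (ENSG00000126803, chromosome 14, 64535905 to 64546173), best known for its role in male germ cells, was the member set apart by genotype. It stood at 2.47, 2.55 and 2.62 CPM in zinc-treated knockout cells, 3.34, 4.09 and 3.58 CPM in cadmium-treated knockout cells and 2.15, 2.07 and 1.86 CPM in knockout cells in water. The wild type gave 9 counts in zinc, 8 in cadmium and 4 in water over 3 libraries each, where the knockout gave 241, 329 and 201. Every knockout library was thus above every wild-type library, a direction built into the selection of HSPA2 through the knockout. In knockout, the cadmium change of 0.85 ± 0.14 was called and the zinc change of 0.34 ± 0.15 was not (edgeR adjusted p = 0.0519, and it passed under 7 of the 27 alternatives, with 0.0361 at the lowest), and in wild type neither change passed.

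HSPA9 (ENSG00000113013, chromosome 5, 138553756 to 138575724), which pulls proteins into the mitochondrial matrix and takes part in iron-sulfur cluster assembly, responded less in the knockout. It stood at 679, 683 and 671 CPM in zinc-treated knockout cells, 790, 777 and 760 CPM in cadmium-treated knockout cells and 661, 640 and 625 CPM in knockout cells in water. In wild type it stood at 1115, 1091 and 1124 CPM in zinc, 1167, 1184 and 1215 CPM in cadmium and 817, 759 and 788 CPM in water. The knockout libraries lay below the wild-type libraries under each treatment, without overlap. The log2 change was 0.08 ± 0.03 for zinc in knockout (edgeR adjusted p = 0.0149), which was -0.01 with scaling to library size alone, and 0.27 ± 0.03 for cadmium, against 0.49 ± 0.03 and 0.59 ± 0.03 in wild type.

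HSPA4 and HSPA4L belong to the HSP110 branch of the family, which acts as exchange factor for other HSP70 proteins. HSPA4 (ENSG00000170606, chromosome 5, 133051962 to 133106449) stood at 653 to 676 CPM in zinc-treated, 619 to 629 CPM in cadmium-treated and 495 to 518 CPM in water-treated knockout cells, and at 684 to 721, 650 to 689 and 519 to 544 CPM in wild type. Its rises were among the smallest of the family, with log2 changes of 0.40 ± 0.03 (zinc) and 0.31 ± 0.03 (cadmium) in knockout and 0.39 ± 0.03 and 0.33 ± 0.03 in wild type. HSPA4L (ENSG00000164070, chromosome 4, 127781821 to 127840733), its relative with a known role in testis, stood at 277 to 289 CPM in zinc-treated, 198 to 212 CPM in cadmium-treated and 125 to 132 CPM in water-treated knockout cells. The wild-type ranges were 250 to 292, 212 to 229 and 141 to 147 CPM. Zinc raised HSPA4L more than cadmium did, by 1.12 ± 0.04 against 0.67 ± 0.04 in knockout and 0.92 ± 0.04 against 0.61 ± 0.04 in wild type.

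**Figure D4:**
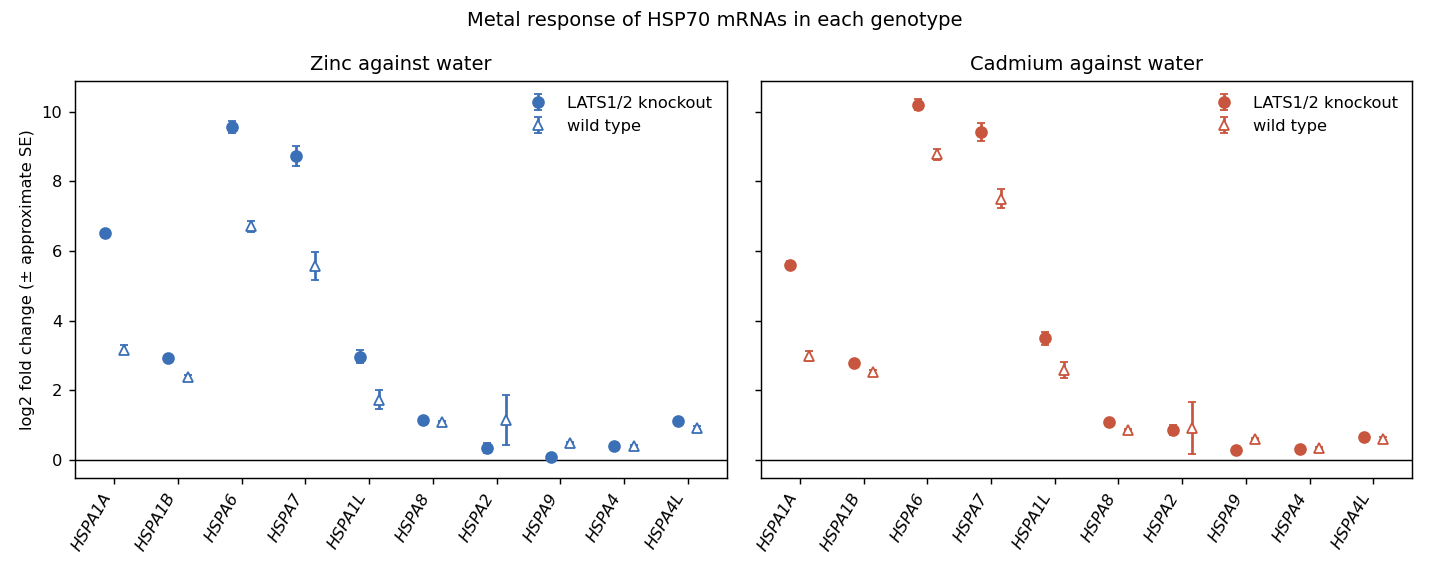
Log2 fold change against water ± approximate standard error for zinc (left) and cadmium (right), with filled circles for knockout and open triangles for wild type. HSPA1A shows the widest gap between genotypes (6.51 and 3.16 for zinc), HSPA6 the highest values, and the zinc value of HSPA9 in knockout (0.08) becomes -0.01 with scaling to library size alone.

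Together the 10 genes took 1.41% ± 0.0430 of all counts in zinc-treated knockout cells, 1.38% ± 0.0130 in cadmium-treated knockout cells and 0.431% ± 0.00578 in knockout cells in water (SD, n = 3). In wild type the shares were 1.17% ± 0.0624 in zinc, 1.18% ± 0.0366 in cadmium and 0.488% ± 0.0137 in water. The knockout thus held the higher share after metal and the lower share in water, each time without overlap between the libraries. Among the counts of the family, HSPA1B made up 48.7% in zinc-treated and 44.4% in cadmium-treated knockout cells, against 22.1% in knockout cells in water. In wild type HSPA1B made up 36.3% in zinc and 38.7% in cadmium, against 17.6% in water. HSPA8 made up 29.1% in zinc-treated and 28.5% in cadmium-treated knockout cells, against 46.2% in knockout cells in water. In wild type HSPA8 made up 43.8% in zinc and 35.2% in cadmium, against 51.4% in water, so its share was lower after metal although its level was higher. HSPA6 supplied 9.40% after zinc and 14.8% after cadmium in knockout, and 2.30% and 9.25% in wild type.

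**Figure D5:**
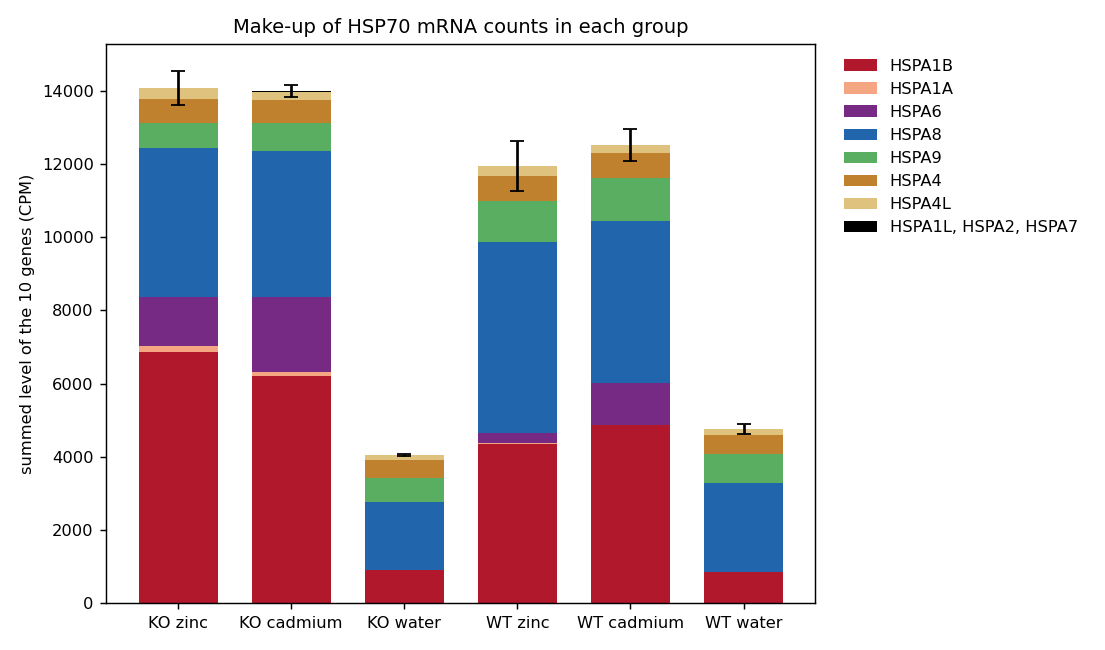
Summed CPM of the 10 HSP70 genes in each group, stacked by gene, with the bar height at the group mean and error bars of 1 SD of the sum (n = 3 libraries). HSPA1B makes up 48.7% of the bar in zinc-treated knockout cells, and HSPA8 is the largest part in water and in zinc-treated wild type.

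Levels per kilobase used all annotated exons of a gene merged. For HSPA8 this was 4849 bases against a transcript of 2463, and for HSPA1B and HSPA6 it equalled the transcript (2521 and 2371 bases). The order by transcript length was not worked out, so the placings hold for merged exons only. The uncertain split from HSPA1A also limits the HSPA1B level. Per kilobase of merged exon, HSPA1B was the most abundant member under metal in both genotypes. It stood at 2721 ± 104 CPM per kb in zinc-treated and 2466 ± 33.8 in cadmium-treated knockout cells, and at 1724 ± 127 and 1926 ± 98.6 in wild type. In water HSPA8 came first, at 385 ± 0.390 CPM per kb in knockout and 504 ± 15.1 in wild type, ahead of HSPA1B at 355 ± 22.9 and 332 ± 29.9. By this exon length HSPA6 came second in cadmium-treated knockout cells (874 ± 35.0 CPM per kb), ahead of HSPA8 (822 ± 7.10). It followed HSPA1B and HSPA8 in zinc-treated knockout (560 ± 47.7) and cadmium-treated wild type (489 ± 40.6). In zinc-treated wild type HSPA4, HSPA9 and HSPA6 (136 ± 3.72, 134 ± 2.08 and 117 ± 28.3 CPM per kb) overlapped. The other neighbours whose libraries overlapped were HSPA1A and HSPA6 in water in both genotypes, and HSPA7 and HSPA2 in wild type in water.

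Knockout against wild type in water asked whether the family differs before metal. Of 10 members, 1 was higher (30.8% of all tested genes were) and 4 were lower (32.1% were), so the higher count lay below the share over all genes and the lower count near it. The member that was higher was HSPA2, by 5.40 ± 0.35, or 46.0-fold on summed counts with a 95% counting interval of 17.7 to 170. That direction was built into its selection, since HSPA2 passed the filter on low counts only through the knockout. Those lower were HSPA8 by -0.39 ± 0.03, HSPA9 by -0.30 ± 0.03, HSPA4L by -0.15 ± 0.04 and HSPA4 by -0.08 ± 0.03. The HSPA4 call was lost under 3 of the 27 alternatives, scaling to library size alone among them. The other 5 members did not pass and their libraries overlapped, with differences of 0.13 ± 0.20 for HSPA1A, 0.10 ± 0.05 for HSPA1B, -0.59 ± 0.37 for HSPA6, -0.99 ± 1.19 for HSPA7 and 0.47 ± 0.32 for HSPA1L. HSPA1B passed under 8 of the 27 alternatives and HSPA6 under 3.

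Under zinc, 6 of 10 members were higher in knockout than in wild type (34% of all tested genes) and 3 were lower (32.7%). Those higher were HSPA1A by 3.48 ± 0.06, HSPA6 by 2.26 ± 0.09, HSPA7 by 2.18 ± 0.13, HSPA1L by 1.72 ± 0.16 and HSPA1B by 0.66 ± 0.05. HSPA2 was also higher, by 4.61 ± 0.28, a direction built into its selection through the knockout. HSPA9, HSPA8 and HSPA4 were lower by -0.71 ± 0.03, -0.35 ± 0.03 and -0.07 ± 0.03, and HSPA4L did not pass at 0.04 ± 0.04. The HSPA4 call was lost under 3 of the 27 alternatives here too (edgeR adjusted p of 0.0896 to 0.146). Under cadmium, 6 of 10 were again higher (32.5% of all tested genes) and 4 lower (34.5%). HSPA1A was higher by 2.75 ± 0.07, HSPA1L by 1.38 ± 0.14, HSPA7 by 0.92 ± 0.09, HSPA6 by 0.84 ± 0.09, HSPA1B by 0.36 ± 0.05 and HSPA2 by 5.35 ± 0.27. For HSPA2 the direction was again built into its selection. HSPA9 was lower by -0.62 ± 0.03, HSPA8 by -0.15 ± 0.03, HSPA4 by -0.11 ± 0.03 and HSPA4L by -0.09 ± 0.04, and the HSPA4L libraries overlapped.

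The difference of the metal response between genotypes was tested as an interaction, knockout minus wild type. For zinc, 5 of 10 members responded more in the knockout (14.1% of all tested genes did) and 1 responded less (10.5% did). The larger responses were those of HSPA1A by 3.36 ± 0.23, HSPA6 by 2.84 ± 0.39, HSPA1L by 1.24 ± 0.38, HSPA1B by 0.56 ± 0.06 and HSPA4L by 0.20 ± 0.06, and the smaller one was that of HSPA9 by -0.42 ± 0.04. The sum of HSPA1A and HSPA1B, which does not depend on their split but would lack reads left out of both, differed by 0.59 ± 0.06. The HSPA1L call was lost without replicate 2 or 3 of wild type in water (1.03 and 1.08). HSPA7 gave 3.17 ± 1.31 on few water counts and did not pass (edgeR adjusted p = 0.0748). The HSPA7 value passed with DESeq2 (adjusted p = 0.0370) and without replicate 1 of wild type in water or in zinc (edgeR adjusted p = 0.0405 and 0.0356). HSPA8 (0.03 ± 0.04), HSPA4 (0.01 ± 0.04) and HSPA2 (-0.79 ± 0.72) did not pass.

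For cadmium, 4 of 10 members responded more in the knockout (14% of all tested genes) and 1 less (14.1%). They were HSPA1A by 2.62 ± 0.23, HSPA6 by 1.42 ± 0.38, HSPA1B by 0.26 ± 0.06 and HSPA8 by 0.24 ± 0.04, with HSPA9 smaller by -0.32 ± 0.04. The sum of HSPA1A and HSPA1B differed by 0.28 ± 0.06. The HSPA6 call rests on the water libraries: it was 0.93 without replicate 3 of wild type in water (edgeR adjusted p = 0.136), the library at 3.88 CPM. With a robust estimate of the spread neither HSPA6 (edgeR adjusted p = 0.126) nor HSPA1B (0.0745) passed. HSPA1L gave 0.91 ± 0.37 and did not pass (edgeR adjusted p = 0.0581). It did pass on the strand with most reads (edgeR adjusted p = 0.0353) and with a filter of at least 5 CPM in 3 libraries (0.0440). It also passed without replicate 1 of wild type in water (0.0105) or of knockout in water (0.0299).

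Cadmium against zinc compares the metals at the doses used. In knockout, 5 of 10 members were higher in cadmium (23.9% of all tested genes) and 4 were lower (24.3%). HSPA7 was higher by 0.68 ± 0.09, HSPA6 by 0.64 ± 0.09, HSPA1L by 0.52 ± 0.12, HSPA2 by 0.52 ± 0.14 and HSPA9 by 0.19 ± 0.03. HSPA1A was lower by -0.91 ± 0.05, HSPA4L by -0.45 ± 0.04, HSPA1B by -0.14 ± 0.05 and HSPA4 by -0.10 ± 0.03. In wild type, 5 were higher (27.3%) and 2 lower (25%): HSPA6 by 2.06 ± 0.09, HSPA7 by 1.94 ± 0.13, HSPA1L by 0.85 ± 0.18, HSPA1B by 0.16 ± 0.05 and HSPA9 by 0.10 ± 0.03 were higher, and HSPA4L by -0.31 ± 0.04 and HSPA8 by -0.25 ± 0.03 lower. HSPA1B lost its call in both genotypes with DESeq2 (adjusted p = 0.121 in knockout and 0.0622 in wild type) and with a robust estimate of the spread (edgeR adjusted p = 0.119 and 0.0756). In knockout it was also lost without replicate 1 of the zinc group (edgeR adjusted p = 0.0650). HSPA4 in wild type (-0.06 ± 0.03) did not pass (edgeR adjusted p = 0.0707), but it passed with DESeq2 (adjusted p = 0.0364).

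The excess of cadmium over zinc, a log2 change that is negative where cadmium lay lower, differed between genotypes for 5 members. In the knockout 1 had a higher value (9.64% of all tested genes) and 4 a lower one (13.9%). The value was lower in knockout for HSPA6 by -1.42 ± 0.12, HSPA7 by -1.26 ± 0.16, HSPA1A by -0.74 ± 0.10 and HSPA1B by -0.30 ± 0.06, and higher for HSPA8 by 0.21 ± 0.04. For HSPA1A it was negative in both genotypes (-0.91 in knockout, -0.17 and not passed in wild type). The same held for HSPA8 (-0.04 and not passed in knockout, -0.25 in wild type). The values that did not pass were called with scaling to library size alone (-0.23 for HSPA1A in wild type and -0.06 for HSPA8 in knockout). For HSPA1B the excess was -0.14 in knockout and 0.16 in wild type. These contrasts leave the sparse water counts out. The HSPA7 share of its pair was near-constant under metal and the split is uncertain, so the HSPA7 value cannot be taken as separate from that of HSPA6. The sum of both gave -1.42 ± 0.12. HSPA9 (0.10 ± 0.04) and HSPA4L (-0.14 ± 0.05) did not pass (edgeR adjusted p = 0.0681 and 0.0599). HSPA9 passed with DESeq2 (adjusted p = 0.0226), and HSPA4L passed with the replicate number as a block (edgeR adjusted p = 0.0436).

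The proteins that work with HSP70 were described by 6 lists, to be read against all tested genes. Of those, 28.2% rose and 27.7% fell for zinc in knockout, 23.2% and 23.8% for cadmium in knockout, 29.4% and 32% for zinc in wild type, and 30% and 31.7% for cadmium in wild type. Of 16 J-domain cochaperones, zinc raised 12 and lowered 2 in knockout and raised 11 and lowered 2 in wild type, with median log2 changes of 0.23 and 0.34. Cadmium raised 11 and lowered 1 in knockout (median 0.23, and 8 and 4 with scaling to library size alone) and raised 12 and lowered 3 in wild type (0.49). DNAJB1, the cytosolic J-domain protein that is itself a heat shock gene, rose by 4.92 ± 0.04 for zinc and 4.77 ± 0.04 for cadmium in knockout and by 4.76 ± 0.04 and 4.93 ± 0.05 in wild type. DNAJB4 rose by 2.39 ± 0.05 and 2.08 ± 0.05 in knockout and by 3.16 ± 0.05 and 2.44 ± 0.06 in wild type, a smaller response in knockout by -0.77 ± 0.08 for zinc. DNAJB6, which suppresses aggregation, rose by 1.23 ± 0.03 and 1.14 ± 0.03 in knockout and by 1.28 ± 0.03 and 1.54 ± 0.03 in wild type. The DNAJB1 response differed between genotypes by 0.16 ± 0.06 for zinc and -0.16 ± 0.06 for cadmium. That of HSPA1A, whose split from HSPA1B is uncertain, differed by 3.36 and 2.62, and that of the sum of both by 0.59 and 0.28.

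Of 10 nucleotide exchange factors, zinc raised 6 and lowered 2 in knockout and raised 5 and lowered 5 in wild type. Cadmium raised 5 and lowered 2 in knockout and raised 6 and lowered 2 in wild type. With scaling to library size alone, 4 were higher and 3 lower under each metal in knockout. HSPH1, the inducible HSP110 gene, rose by 3.57 ± 0.04 for zinc and 3.03 ± 0.04 for cadmium in knockout and by 3.56 ± 0.04 and 3.20 ± 0.04 in wild type. BAG3, which links HSP70 to selective autophagy, rose by 3.44 ± 0.04 and 3.66 ± 0.05 in knockout and by 3.40 ± 0.05 and 3.81 ± 0.05 in wild type. GRPEL2, a mitochondrial exchange factor for HSPA9, gave 0.04 ± 0.04 for zinc and rose by 0.91 ± 0.04 for cadmium in knockout, and rose by 1.19 ± 0.04 and 1.67 ± 0.04 in wild type. Its response was smaller in knockout by -1.14 ± 0.06 for zinc and -0.76 ± 0.06 for cadmium, the same direction as HSPA9.

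Of 12 adaptors and HSP90 proteins, zinc raised 10 and lowered 0 in knockout and raised 9 and lowered 1 in wild type. Cadmium raised 10 and lowered 0 in knockout (8 and 2 with scaling to library size alone) and raised 11 and lowered 1 in wild type. HSP90AA1, the inducible cytosolic HSP90, rose by 1.49 ± 0.04 under each metal in knockout and by 1.38 ± 0.04 and 1.29 ± 0.04 in wild type. HSP90AB1, the constitutive form, rose by 1.06 ± 0.03 and 1.01 ± 0.03 in knockout and by 0.95 ± 0.03 and 0.69 ± 0.03 in wild type. CHORDC1, an HSP90 cochaperone, rose by 1.45 ± 0.03 and 1.31 ± 0.03 in knockout and by 1.77 ± 0.03 and 1.86 ± 0.03 in wild type. Of 4 heat shock factor genes, 1 passed higher and 0 lower for zinc in each genotype (0 higher and 1 lower with scaling to library size alone), and 1 passed each way for cadmium (1 higher and 2 lower with that scaling). HSF1 gave 0.05 ± 0.04 for zinc and -0.14 ± 0.04 for cadmium in knockout and -0.06 ± 0.05 and -0.19 ± 0.05 in wild type, HSF2 gave -0.07 ± 0.05, 0.34 ± 0.05, 0.14 ± 0.05 and 0.45 ± 0.05 in that order, and HSF4 passed in none of the 4. The mRNA of these factors does not show their activity, which is set after translation.

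The other genes with an HSP70 fold numbered 7, of which zinc raised 6 and lowered 0 in knockout and raised 5 and lowered 1 in wild type. Cadmium raised 3 and lowered 0 in knockout (3 and 2 with scaling to library size alone) and raised 4 and lowered 2 in wild type. HSPA5, the chaperone of the endoplasmic reticulum, rose by 1.24 ± 0.06 for zinc and 0.94 ± 0.06 for cadmium in knockout and by 0.46 ± 0.06 and 0.30 ± 0.06 in wild type. HSPA13 rose by 0.22 ± 0.05 and 0.33 ± 0.05 in knockout and by 1.01 ± 0.05 and 0.75 ± 0.05 in wild type, and HSPH1 was given above. Of 7 other heat shock genes, 7 rose under each metal in each genotype. HSPB8, a small heat shock protein that works with BAG3, rose by 1.99 ± 0.07 and 1.60 ± 0.08 in knockout and by 1.98 ± 0.08 and 1.91 ± 0.08 in wild type. CRYAB, the small heat shock protein alpha-B crystallin, rose by 1.18 ± 0.28 and 3.64 ± 0.20 in knockout and by 1.32 ± 0.52 and 5.15 ± 0.28 in wild type.

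The genes most like 3 of the members were sought by Pearson correlation of log2 CPM over the 18 libraries among 11064 genes with a mean of at least 5 CPM. These values describe the shared pattern over 6 groups and carry no test. Most like HSPA1A were DNAH17 (r = 0.977), SERPINH1 (0.972), SAT1 (0.972) and NFKBIL1 (0.971). SERPINH1, the collagen chaperone, averaged 818 CPM in zinc-treated, 725 in cadmium-treated and 206 in water-treated knockout cells and 530, 490 and 204 CPM in wild type. Most like HSPA6 were RGS2 (0.990), BAG3 (0.986), ERRFI1 (0.986), DNAJB1 (0.982) and MSANTD3 (0.981). Most like HSPA8 were HSP90AB1 (0.989), FTL (0.988), ST13 (0.982), MXD1 (0.982) and NORAD (0.981). Between members, r was 0.996 for HSPA6 and HSPA7, 0.927 for HSPA1A and HSPA1B, and -0.00298 for HSPA1A and HSPA9.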

How the data were processed

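Stranded Illumina TruSeq mRNA libraries were prepared from TRIzol-extracted RNA, per the labels' protocols. The authors deposited whole-number counts of reads for each Ensembl gene, not normalized. STAR, hg38 and GRCh38.p13 are named in the submitters' processing notes. For the counter, the annotation release and reads that fit several genes, nothing is given in the sources used. Each sample's deposited file has 3 count columns, and the series table used here equals the one for both strands in 18 of 18 files. GENCODE 29 gave symbols and coordinates for 58216 of 58336 IDs.

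Libraries were grouped by their titles. The design text calls the replicates biological without saying whether they came from separate cultures, so the p-values reflect only how these libraries vary. Genes passing filterByExpr (minimum count 10) were scaled by TMM and tested with edgeR 4.0.16 (glmQLFit, glmQLFTest, R 4.3.3) in a model of 6 groups over 18 libraries, with Benjamini-Hochberg adjustment per comparison over 19393 genes. Standard errors were approximated from the test statistic. DESeq2 1.42.0 was an alternative. Counting intervals are 95% exact (ratios) or Wilson (shares) and cover counting error only. The test was first tried on simulated counts with known changes. Members, partner lists and motifs were chosen with earlier results of these data known. All members were named. Of each partner list the 3 genes with the largest mean change over the 4 metal comparisons were named, and for each of HSPA1A, HSPA6 and HSPA8 the 5 best correlated genes, except that 1 gene under these rules is not reported here. Figures were made in Python 3.11.15 with matplotlib 3.10.9.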

Additional observations from a re-analysis of the deposited data

Results flagged for a closer look

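These members were singled out because their response to metal differed between the genotypes by an interaction test (edgeR quasi-likelihood, adjusted p under 0.05), given as log2 differences, knockout minus wild type. The zinc response differed by 3.36 for HSPA1A, 2.84 for HSPA6, 1.24 for HSPA1L, 0.56 for HSPA1B, 0.20 for HSPA4L and -0.42 for HSPA9. The cadmium response differed by 2.62 for HSPA1A, 1.42 for HSPA6, 0.26 for HSPA1B, 0.24 for HSPA8 and -0.32 for HSPA9. For the sum of HSPA1A and HSPA1B, whose split is uncertain, the differences were 0.59 for zinc and 0.28 for cadmium. The excess of cadmium over zinc, which is negative where cadmium lay lower, differed by -1.42 for HSPA6, -1.26 for HSPA7, -0.74 for HSPA1A, -0.30 for HSPA1B and 0.21 for HSPA8. The zinc and cadmium responses of a genotype share its water libraries.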

How the results depend on the processing

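Over 27 alternatives, 3098 of 3176 member values kept their side of the threshold with no called value changing sign, 28 lost a call, 49 gained one and 1 called value changed sign. A further 13 values, counted among the 3098 and past the threshold neither way, also changed sign. The called value was the zinc response of HSPA9 in knockout, -0.011 with scaling to library size alone. That response also lost its call without the filter on low counts and without replicate 2 or 3 of knockout in water. With a robust estimate of the spread, added after seeing the data, 3 members were called for the cadmium response, knockout minus wild type, in place of 5. With the near-identical pairs summed, 3 were called for the excess of cadmium over zinc between genotypes, in place of 5, because 8 features then stand for the 10 members. Leaving out 1 library at a time gave 8 to 10 members called for zinc and 10 to 10 for cadmium in knockout, 9 to 9 for each metal in wild type, 4 to 7 for knockout against wild type in water, 8 to 9 in zinc and 9 to 10 in cadmium. It gave 8 to 9 for cadmium against zinc in knockout, 7 to 9 in wild type, and 5 to 7, 4 to 6 and 5 to 6 for the differences of the zinc response, the cadmium response and the excess of cadmium over zinc. Without replicate 3 of knockout in water, the HSPA7 changes in knockout were 8.09 for zinc and 8.78 for cadmium, against 8.73 and 9.41. Without replicate 3 of wild type in zinc, HSPA1B was higher in cadmium than zinc by 0.10 in wild type. The lower HSPA4L level in knockout under cadmium (-0.09) lost its call under 7 alternatives. The cause was not tested for these changes.

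Scaling to library size alone moved the median of all genes by -0.12 for cadmium in wild type and -0.11 in knockout. The higher share of called genes became 28.7% in place of 49.3% for cadmium in knockout, 37.2% in place of 50.4% for zinc in knockout, 35.5% in place of 48.6% for cadmium in wild type, and 51.3% in place of 40.9% for the excess of cadmium over zinc between genotypes.

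The labels number the replicates 1 to 3 in every group without saying what a number shares, so the numbers were not taken to pair the samples. The deviations of same-numbered libraries correlated weakly (-0.0249 to 0.0864), which does not exclude a shared batch. As a hint from the data and not the design, 16 of 18 libraries correlated best with their own number. With the replicate number as a block, 6 members in place of 5 were called for knockout against wild type in water and 7 in place of 5 for the excess of cadmium over zinc between genotypes, and the block moved no other count of members.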
